A study of Mus musculus with 4 samples.

Results

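The 8 genes described here, Foxp3, Ikzf2, Ikzf4, Il2ra, Nrp1, Izumo1r, Gpr83 and Capg, are those by which regulatory T cells are commonly recognised in mice. They were taken by symbol from the 31053 genes of the feature table, each symbol matched 1 gene, and their levels were read in all 4 single-cell libraries of a study of lung tumours. Mouse lung cancer cells called KP, either Asf1a knockout (KO) or wild type (WT) for Asf1a, were injected into a vein of B6 mice, and the mice then received an antibody against PD-1 (clone 29F.1A12, 200 µg per mouse, 3 times per week) or isotype IgG for 1 week. Live cells were sorted from digested whole lungs, so the 4 groups, each of which is 1 library, were KO tumours with anti-PD-1 (KO anti-PD-1), KO tumours with IgG (KO IgG), WT tumours with anti-PD-1 (WT anti-PD-1) and WT tumours with IgG (WT IgG). The deletion was carried by the injected cells and not by the host, so the T cells of all 4 groups had an intact Asf1a gene. How many mice went into a library, whether they were pooled, their age, and how many clones the KO line comprised were not given in the sources used here.

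Regulatory T cells are CD4 T cells that restrain other lymphocytes and that keep their state through Foxp3, a forkhead transcription factor on the X chromosome. Helios (Ikzf2) and Eos (Ikzf4) are zinc finger proteins of the Ikaros family, and Eos acts as a partner of Foxp3 in gene silencing in mice. CD25 (Il2ra) is the alpha chain that makes the IL-2 receptor high in affinity, and IL-2 signals through STAT5, which binds regulatory elements of the Foxp3 gene. Neuropilin-1 (Nrp1) is a semaphorin receptor, folate receptor 4 (Izumo1r) a surface protein of the folate receptor family, Gpr83 a G protein-coupled receptor, and Capg a protein that caps actin filaments. In lung tumours such cells commonly accumulate as activated cells that carry receptors of the TNF receptor family and amphiregulin.

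RefSeq promoter windows of assembly GRCm38.p6, from 250 bases before to 50 bases after a gene start, were found for 6 of the 8 genes in 7 windows, and they are shown for the gene that defines the cell type and for the neighbouring pair Izumo1r and Gpr83. The 2 Foxp3 windows lie on the plus strand at chrX:7579426-7579725 and chrX:7580233-7580532. Those of Izumo1r, on the minus strand at chr9:14903718-14904017, and Gpr83, on the plus strand at chr9:14859960-14860259, belong to genes with 0 protein-coding genes between them. Capitals mark matches, on either strand, to TTCNNNGAA for STAT5, TGGGAA for Ikaros proteins, GGAAAA for NFAT and TGTTTAC for forkhead proteins.
Foxp3 window 1: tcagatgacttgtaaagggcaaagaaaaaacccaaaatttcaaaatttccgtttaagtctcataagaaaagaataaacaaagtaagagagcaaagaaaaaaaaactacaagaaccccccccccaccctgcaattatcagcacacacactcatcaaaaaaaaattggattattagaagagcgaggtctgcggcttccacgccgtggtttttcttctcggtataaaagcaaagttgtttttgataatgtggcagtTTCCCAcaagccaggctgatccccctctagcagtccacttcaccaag
Foxp3 window 2: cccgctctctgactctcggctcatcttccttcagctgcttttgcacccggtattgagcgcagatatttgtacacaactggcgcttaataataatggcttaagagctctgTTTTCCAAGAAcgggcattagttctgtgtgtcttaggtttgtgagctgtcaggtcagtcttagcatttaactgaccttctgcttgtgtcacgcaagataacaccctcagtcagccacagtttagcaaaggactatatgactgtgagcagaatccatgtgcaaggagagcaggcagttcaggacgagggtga
Izumo1r: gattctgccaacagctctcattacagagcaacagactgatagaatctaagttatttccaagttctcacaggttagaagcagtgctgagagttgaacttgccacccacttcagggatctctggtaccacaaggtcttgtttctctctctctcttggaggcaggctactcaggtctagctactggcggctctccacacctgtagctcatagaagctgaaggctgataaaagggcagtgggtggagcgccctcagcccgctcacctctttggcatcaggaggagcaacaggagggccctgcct
Gpr83: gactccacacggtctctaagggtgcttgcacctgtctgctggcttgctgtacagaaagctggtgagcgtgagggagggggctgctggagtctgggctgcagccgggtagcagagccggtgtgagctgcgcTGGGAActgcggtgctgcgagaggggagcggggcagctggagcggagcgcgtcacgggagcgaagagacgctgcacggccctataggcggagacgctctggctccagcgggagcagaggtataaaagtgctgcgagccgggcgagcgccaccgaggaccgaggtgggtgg

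The STAT5 motif was found in 1 of the 7 windows, the second of Foxp3, as TTCCAAGAA at base -139 from the gene start, where 8.33% of 32544 RefSeq promoters of the same length hold a match. It overlaps an NFAT match at base -141 on the other strand, and that motif occurs in 23.3% of promoters. The Ikaros motif was found in 3 windows, those of Foxp3 at base 4, of Gpr83 at base -120 and of Capg at bases -138 and -58, against 25.4% of promoters. The forkhead motif was found in 0 of the 7 windows and in 3.66% of promoters. These are matches of letters only: the assay counts the 3′ ends of transcripts and measures nothing at these windows.

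The libraries held 6094, 6362, 6683 and 6074 barcodes in the order KO anti-PD-1, KO IgG, WT anti-PD-1 and WT IgG, with between 16078095 and 22506737 unique molecular identifiers (UMIs, each a single captured transcript) per library. After filters on genes, mitochondrial UMIs and doublets, 23360 cells remained, with a median of 1339, 1221.5, 1879.5 and 2025.5 UMIs in that order, so the KO libraries were the shallower ones. In the tumour or epithelial cluster Asf1a stood at 8.27 and 10.3 CPM (UMIs of a gene per 1000000 UMIs summed over the cells of a class in a library) in the KO anti-PD-1 and KO IgG libraries, against 31.2 and 33.2 CPM in the WT anti-PD-1 and WT IgG libraries. Because each group is a single library, no difference between groups could be tested. The intervals given below are exact 95% intervals that cover counting error only and not the spread between mice. Barcodes shared between libraries could not be counted, since the barcode list used here matches only 1 of the matrices in length.

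Clustering found 5635 T cells, and without the 8 genes among the clustering genes these fell into 11 sub-clusters that were kept as T cells. One of them, with 525 cells, led on a separate list of regulatory T cell markers and is called regulatory T cells here; of its 10 genes with the highest fold over other T cells, Foxp3, Il2ra and Ikzf2 are among the 8 genes and had no part in forming it. The others were called, from marker genes, cycling, CD8 T-like, naive T-like, CD4 T-like (one led by Cd40lg and one by Ccl1 and Penk) and Ly49 T-like (led by Klra7), or stayed unnamed (led by Xcl1 and Crtam, by Ly6c2 and Dapl1, by Calca and Il1rl1, or by the interferon-induced genes Ifit1 and Isg15). The regulatory cells numbered 141 of 1035 T cells in the KO anti-PD-1 library, 81 of 990 in the KO IgG library, 174 of 1926 in the WT anti-PD-1 library and 129 of 1684 in the WT IgG library, which is 13.6% (11.6 to 15.9), 8.18% (6.55 to 10.1), 9.03% (7.79 to 10.4) and 7.66% (6.44 to 9.04) of T cells. Regulatory cells were shallower than other T cells in every library, with a median of 926 UMIs against 2139 UMIs over all libraries. Their median mitochondrial share was 4.10% against 3.02%, and ribosomal protein genes took 20.1% of their UMIs against 36.6% in other T cells; the part of these differences in the results below was not tested.

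Foxp3 was the gene with the highest ratio of regulatory over other T cells among the 8286 genes ranked, and it was low everywhere else. Foxp3 stood at 240, 499, 252 and 260 CPM in the regulatory cells of the KO anti-PD-1, KO IgG, WT anti-PD-1 and WT IgG libraries, against 7.69, 2.29, 8.40 and 5.26 CPM in the other T cells of the same libraries. The lowest regulatory value was thus far above the highest value in other T cells, and the KO IgG library was highest in regulatory cells and lowest in the rest. Over all libraries the ratio was 45.2 (34.6 to 59.6), or 5.50 on the log2 scale, and within single libraries it ran from 30.1 to 218. Of 330 Foxp3 UMIs in all cells, 272 were in T cells and 194 in regulatory cells.

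Il2ra, Ikzf2 and Ikzf4 were also several-fold higher in regulatory cells in each library. Il2ra was at 286, 317, 182 and 282 CPM in regulatory cells of the KO anti-PD-1, KO IgG, WT anti-PD-1 and WT IgG libraries, against 16.5, 12, 13.3 and 10.9 CPM in other T cells. Ikzf2 was at 2162, 3501, 3596 and 2742 CPM in regulatory cells, against 232, 262, 279 and 226 CPM in other T cells. In both genes the 2 classes did not overlap, and the share of all genes that separate them in this way was not counted. The WT anti-PD-1 library was the lowest for Il2ra and the KO anti-PD-1 library the lowest for Ikzf2. Ikzf4 was at 58.4, 136, 112 and 97.0 CPM in regulatory cells, on 9, 12, 24 and 22 UMIs, against 11, 9.72, 10.7 and 8.54 CPM in other T cells. Over all libraries the ratios were 20.1 (16.2 to 25.1) for Il2ra, 11.9 (11.2 to 12.6) for Ikzf2 and 9.99 (7.30 to 13.6) for Ikzf4. A single cell held 26.6% of the Il2ra UMIs of the regulatory cells in the WT IgG library.

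Izumo1r and Capg were higher in regulatory cells in every library as well, and Nrp1 was not. Izumo1r was at 773, 453, 542 and 326 CPM in the regulatory cells of the KO anti-PD-1, KO IgG, WT anti-PD-1 and WT IgG libraries, against 72.0, 48.0, 52.0 and 51.7 CPM in other T cells, a ratio of 9.42 (8.25 to 10.7) over all libraries. Capg was at 500, 465, 463 and 591 CPM in regulatory cells, against 190, 84.0, 140 and 120 CPM in other T cells, a ratio of 3.90 (3.46 to 4.37). Neither gene's classes overlapped between libraries, again without a count of how many of all genes do the same. Nrp1 was at 32.5, 79.3, 103 and 97.0 CPM in regulatory cells, against 41.8, 20.6, 45.0 and 34.2 CPM in other T cells, so that the KO anti-PD-1 library had it lower in regulatory cells (0.78, 0.24 to 1.90) on 5 UMIs. Over all libraries Nrp1 had a ratio of 2.21 (1.64 to 2.92) and ranked 738 of 8286. Gpr83 gave 1 UMI in the regulatory cells of each library, at 6.49, 11.3, 4.68 and 4.41 CPM, against 0.55, 1.72, 1.87 and 2.41 CPM in other T cells on 1, 3, 8 and 11 UMIs, too few to place it.

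Of the 7 genes with at least 80 UMIs in T cells, 6 were at least 2-fold higher in regulatory cells in all 4 libraries, where 3.33% of 8339 genes were. Their median log2 ratio over all libraries was 3.32, against 0.30 over all ranked genes. Nrp1 was the exception: its ratio was 0.78 in the KO anti-PD-1 library, on 5 UMIs in regulatory cells. In the KO IgG, WT anti-PD-1 and WT IgG libraries it was 3.85, 2.29 and 2.84. The sub-cluster was formed from other genes of the same cells, so these ratios describe it and are no independent test of it.

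**Figure D1:**
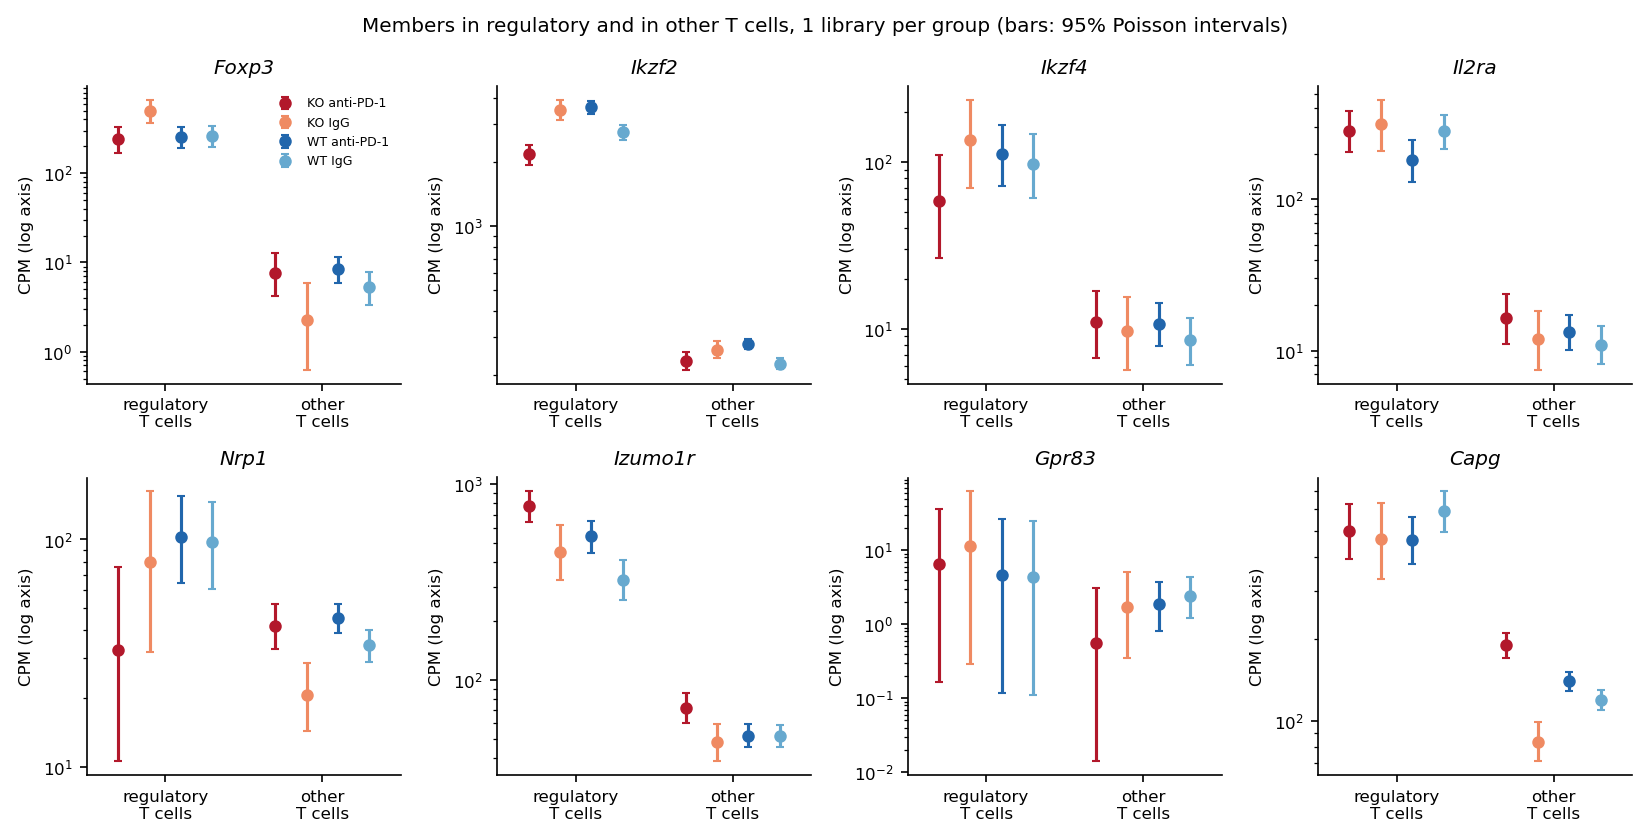
Each panel is 1 gene, and the points give its CPM on a log axis in regulatory T cells (left) and other T cells (right) of the KO anti-PD-1, KO IgG, WT anti-PD-1 and WT IgG libraries, with exact 95% Poisson intervals of the counts. Foxp3 lies between 240 and 499 CPM in regulatory cells and between 2.29 and 8.40 CPM in other T cells, while the Nrp1 classes overlap.

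The order of levels over 24 cell classes set Foxp3, Il2ra, Izumo1r, Ikzf2 and Ikzf4 highest in regulatory T cells and Nrp1 and Capg highest elsewhere. The mean Foxp3 level over libraries was 313 CPM (library range 240 to 499) in regulatory cells, and the next classes were Cd40lg-led CD4 T-like cells at 16.4 CPM (11.2 to 22.3), cycling T cells at 14.2 CPM (3.71 to 23.5), the interferon-led T cells at 12.9 CPM (0 to 29.4) and naive T-like cells at 12 CPM (0 to 34.1). These 4 overlap one another and none reaches the regulatory range. The interferon-led value rests on 3 UMIs and the naive T-like one on 9 UMIs. The highest naive T-like value, in the KO anti-PD-1 library, is 1 UMI in 24 cells. Summed over libraries, naive T-like cells had 4.70 CPM, below the Penk-led CD4 T-like cells at 5.96 CPM, so these places are not firm. Outside T cells the highest mean was 2.93 CPM in alveolar macrophages, on 2 UMIs.

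Ikzf2 averaged 3000 CPM (2162 to 3596) in regulatory cells, followed by the Ly49 T-like cells at 731 CPM (584 to 825) and the unnamed Xcl1-led cells at 534 CPM (242 to 728), whose ranges overlap. The Ly49 T-like range lies above cycling cells at 341 CPM (182 to 408) and CD4 T-like cells at 332 CPM (211 to 463, Penk-led) and 330 CPM (163 to 469, Cd40lg-led), which the range of the Xcl1-led cells overlaps. Basophils, at 195 CPM (77.5 to 370), had the highest mean outside T cells. Ikzf4 averaged 101 CPM (58.4 to 136) in regulatory cells. The interferon-led T cells came next at 32.2 CPM with a range of 0 to 118 that overlaps it, on only 5 UMIs. Of these, 4 were in the KO anti-PD-1 library, where 1 cell held 75% of them, so this place is not firm. Migratory dendritic cells followed at 26.9 CPM (15.6 to 37.9) on 68 UMIs.

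Il2ra averaged 267 CPM (182 to 317) in regulatory cells, above the range of the unnamed T cells led by Calca and Il1rl1 at 114 CPM (39.3 to 170). The unnamed Xcl1-led cells at 67.4 CPM (36.4 to 108) and migratory dendritic cells at 50.3 CPM (44.4 to 57.1) overlapped those. Izumo1r averaged 524 CPM (326 to 773) in regulatory cells, and the Cd40lg-led and Penk-led CD4 T-like cells came next at 184 CPM (148 to 216) and 172 CPM (112 to 220), which overlap each other and not the regulatory range. Among the other T cells only naive T-like cells, at 83.1 CPM (51.8 to 102), and interferon-led cells, at 86.8 CPM (0 to 206), also averaged over 50 CPM.

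Nrp1 was highest in endothelial cells at 277 CPM (184 to 371), where the protein serves as a co-receptor for vascular endothelial growth factor. Among T cells the Penk-led CD4 T-like cells had 139 CPM (112 to 169), which does not overlap the regulatory cells at 77.9 CPM (32.5 to 103), and the Cd40lg-led ones had 80.7 CPM (33.6 to 109). CD8 T-like cells followed at 55.5 CPM (49.4 to 67.2), inside the regulatory range. Capg was highest in macrophages at 530 CPM (474 to 569), next to regulatory cells at 505 CPM (463 to 591) with overlapping ranges. Alveolar macrophages had 414 CPM (342 to 507), tumour or epithelial cells 397 CPM (275 to 488) and Penk-led CD4 T-like cells 356 CPM (279 to 426). Of 18976 Capg UMIs, 10.5% were in T cells, against 82.4% of the Foxp3 UMIs. Gpr83 averaged 6.73 CPM in regulatory cells and 6.63 CPM (0 to 10.9) in naive T-like cells, on 4 and 16 UMIs. In CD8 T-like cells it had 0 UMIs over 1361 cells, which allows up to 1.16 CPM.

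**Figure D2:**
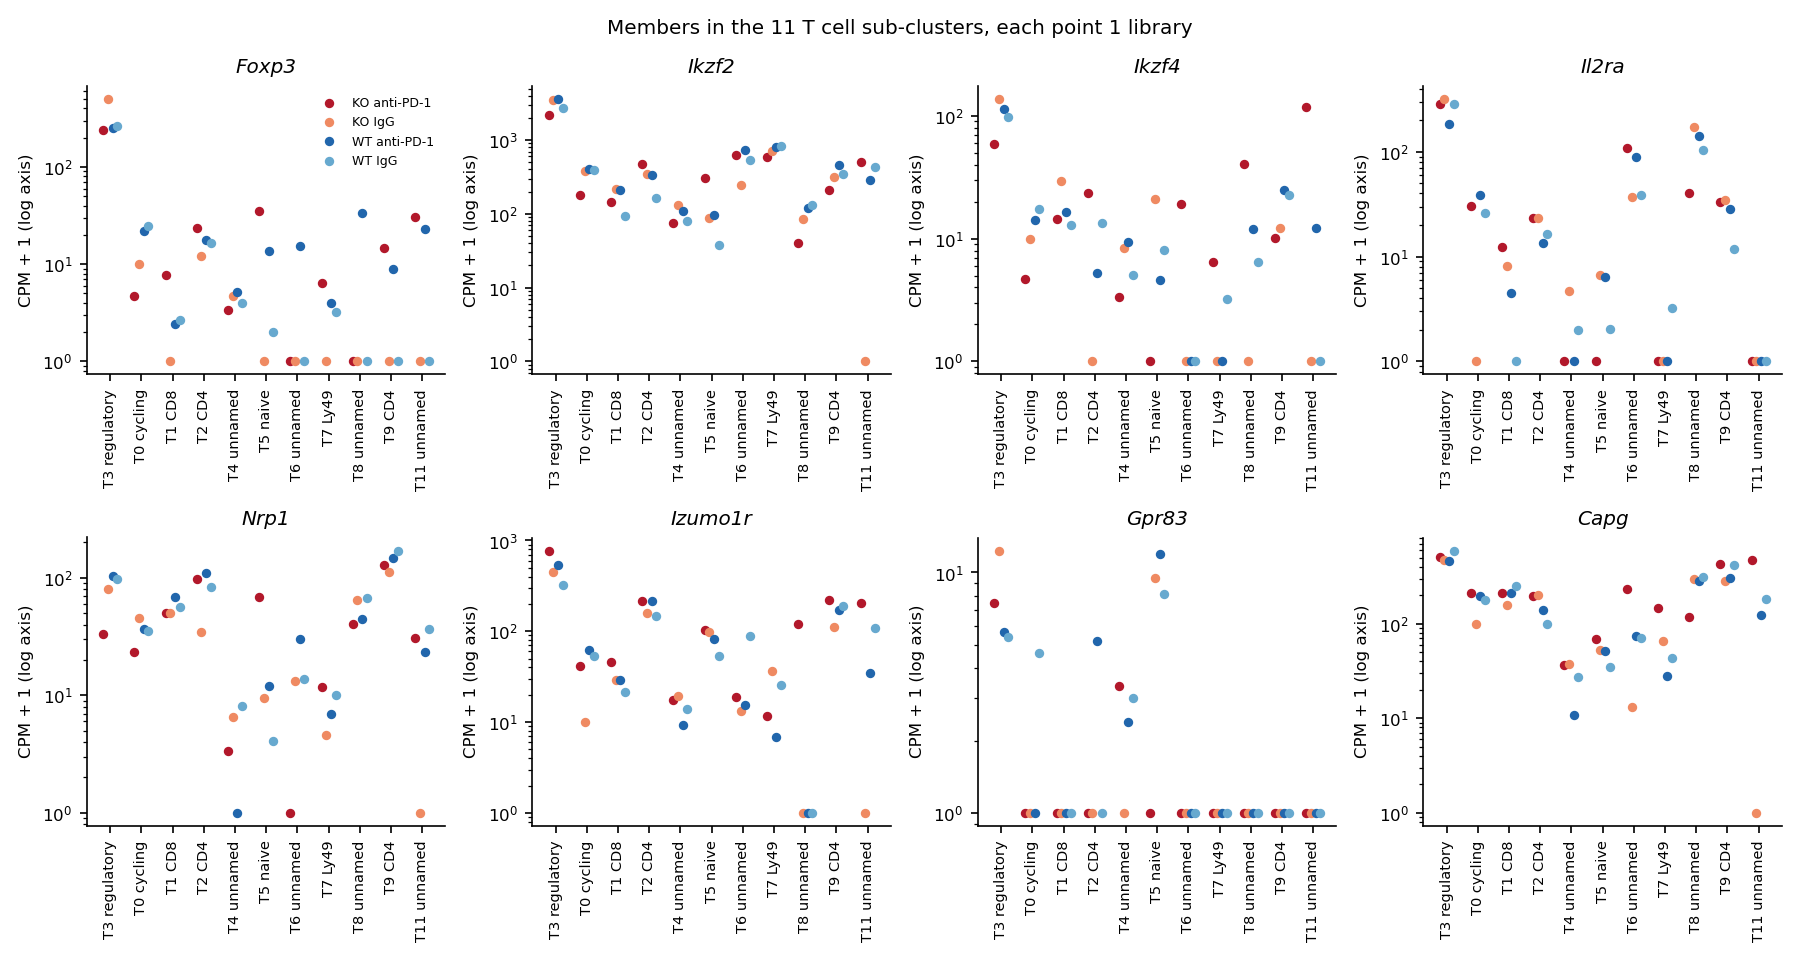
Each panel is 1 gene, with its CPM plus 1 on a log axis in the 11 T cell sub-clusters and 1 point for each library; the numbered names on the horizontal axis carry the marker-based names used in the text. Foxp3, Ikzf2, Il2ra and Izumo1r are highest in the regulatory sub-cluster in every library, whereas Nrp1 is highest in CD4 T-like cells.

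A Foxp3 UMI was found in 137 of 525 regulatory cells, or 26.1% (22.4 to 30.1), against 1.29% of other T cells, 0.22% of B cells and 0.24% of neutrophils, classes that should lack it. Median depths were 926 UMIs in regulatory cells, 2139 in other T cells, 1499 in B cells and 974 in neutrophils. With every cell thinned to 500 UMIs, which left no cell out, the shares were 12.6% of regulatory cells, 0.33% of other T cells, 0.07% of B cells and 0.12% of neutrophils. The share without thinning was 23.4% (16.7 to 31.3) in the KO anti-PD-1 library, 34.6% (24.3 to 46.0) in the KO IgG library, 23.0% (17.0 to 30.0) in the WT anti-PD-1 library and 27.9% (20.4 to 36.5) in the WT IgG library, and all 4 intervals overlap.

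Of the other genes, Ikzf2 was the one seen in most regulatory cells: at 500 UMIs per cell it was found in 68.6% of them, against 9.59% of other T cells, 0.89% of B cells and 0.49% of neutrophils (84.0%, 22.3%, 2.08% and 1.08% without thinning). At the same depth Izumo1r was found in 21.7% of regulatory and 2.86% of other T cells, Il2ra in 12% and 0.65%, Ikzf4 in 5.90% and 0.49%, and Nrp1 in 4.38% and 2.35%. Without thinning these shares were 39.2% and 9.49% for Izumo1r, 19.2% and 2.37% for Il2ra, 11.2% and 2.0% for Ikzf4, and 9.52% and 7.46% for Nrp1. Capg was found in 20.8% of thinned regulatory cells, 6.48% of other T cells and 10.0% of B cells (38.1%, 19.6% and 29.8% without thinning), so B cells carried it more often than other T cells did. Gpr83 at 0.38% of thinned regulatory cells is close to the level of single UMIs.

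Single regulatory cells seldom showed more than a few of the 8 genes. At 500 UMIs per cell, 85.1% had at least 1 of them, 46.7% at least 2 and 12.4% at least 3. Among the other T sub-clusters, Penk-led CD4 T-like cells had the highest shares with at least 1 (43.1%) and at least 2 (6.20%), and cycling T cells the highest with at least 3 (1.21%). In B cells 11.9% had at least 1 and 0.15% at least 2, and in neutrophils 6.13% and 0.08%. Without thinning, the median regulatory cell showed 2 of the 8 genes and the highest count was 7.

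Within the regulatory sub-cluster, the cells without a Foxp3 UMI carried the other genes too, at levels within 2-fold of those in cells with one. Ikzf2 was at 2541 CPM in the cells with a Foxp3 UMI and 3217 CPM in those without, a ratio of 0.79 (0.72 to 0.87). Izumo1r was at 494 and 520 CPM (0.95, 0.75 to 1.19), and Il2ra at 309 and 227 CPM (1.36, 0.99 to 1.85). Capg was at 609 and 461 CPM (1.32, 1.06 to 1.64), and it and Ikzf2 were the only genes whose interval left out 1. The cells with a Foxp3 UMI held more UMIs per cell than those without, and the part of depth was not tested.

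Outside the sub-cluster 66 T cells carried a Foxp3 UMI, and as a group they had a higher level of each of the other 7 genes than the 5044 that did not. Ikzf2 was at 931 CPM in them and 237 CPM in the rest (ratio 3.93, 3.42 to 4.50), Il2ra at 107 and 10.8 CPM (9.88, 6.22 to 15.1), Ikzf4 at 57.7 and 8.87 CPM (6.5, 3.44 to 11.4) and Izumo1r at 214 and 51.1 CPM (4.19, 3.10 to 5.57). Capg was at 408 and 126 CPM (3.22, 2.6 to 3.95), and Nrp1 at 78.2 and 36.3 CPM (2.16, 1.29 to 3.41). Gpr83 had 6 UMIs in these cells and 17 in the rest, 24.7 and 1.40 CPM (17.7, 5.72 to 47.1). Of the 26 Il2ra UMIs in these cells 22 lay in 17 cycling cells. In the other 49 cells Il2ra was at 36.7 CPM against 10.3 CPM (3.55, 0.95 to 9.35) and Nrp1 at 64.2 against 37.3 CPM (1.72, 0.69 to 3.58). Cd8a, the CD8 alpha chain, was lower in the 66 cells, at 144 and 386 CPM (0.37, 0.26 to 0.52). These intervals treat UMIs as independent and the cells were picked by a UMI of Foxp3, so they cover counting error alone. The 66 cells also held more UMIs per cell than the rest, and the part of depth was not tested.

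The 66 cells were spread over 10 sub-clusters, with 17 among cycling T cells, 13 among Cd40lg-led CD4 T-like cells and 9 among naive T-like cells. The 17 cycling cells had Ikzf2 at 1144 CPM against 278 CPM in the other cycling cells (4.11, 3.38 to 4.97), Il2ra at 164 and 15 CPM (10.9, 5.69 to 21.1), and amphiregulin (Areg), a growth factor made by tissue regulatory T cells, at 471 and 16.6 CPM (28.5, 17.3 to 48.6). A single cell held 26.2% of the Il2ra UMIs of all cycling T cells, and whether it carried a Foxp3 UMI is not given here. The 17 cycling cells with a Foxp3 UMI held 63 of the 64 Areg UMIs of the 66 cells. The other 49 cells had 9.17 CPM of Areg, against 27.2 CPM in cells without a Foxp3 UMI of the same sub-clusters. The 9 naive T-like cells had Ikzf2 at 978 CPM against 58.5 CPM in the other naive T-like cells (16.7, 9.41 to 28.0). Gpr83 had 3 of its UMIs in those 9 cells and 13 in the other 946.

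**Figure D3:**
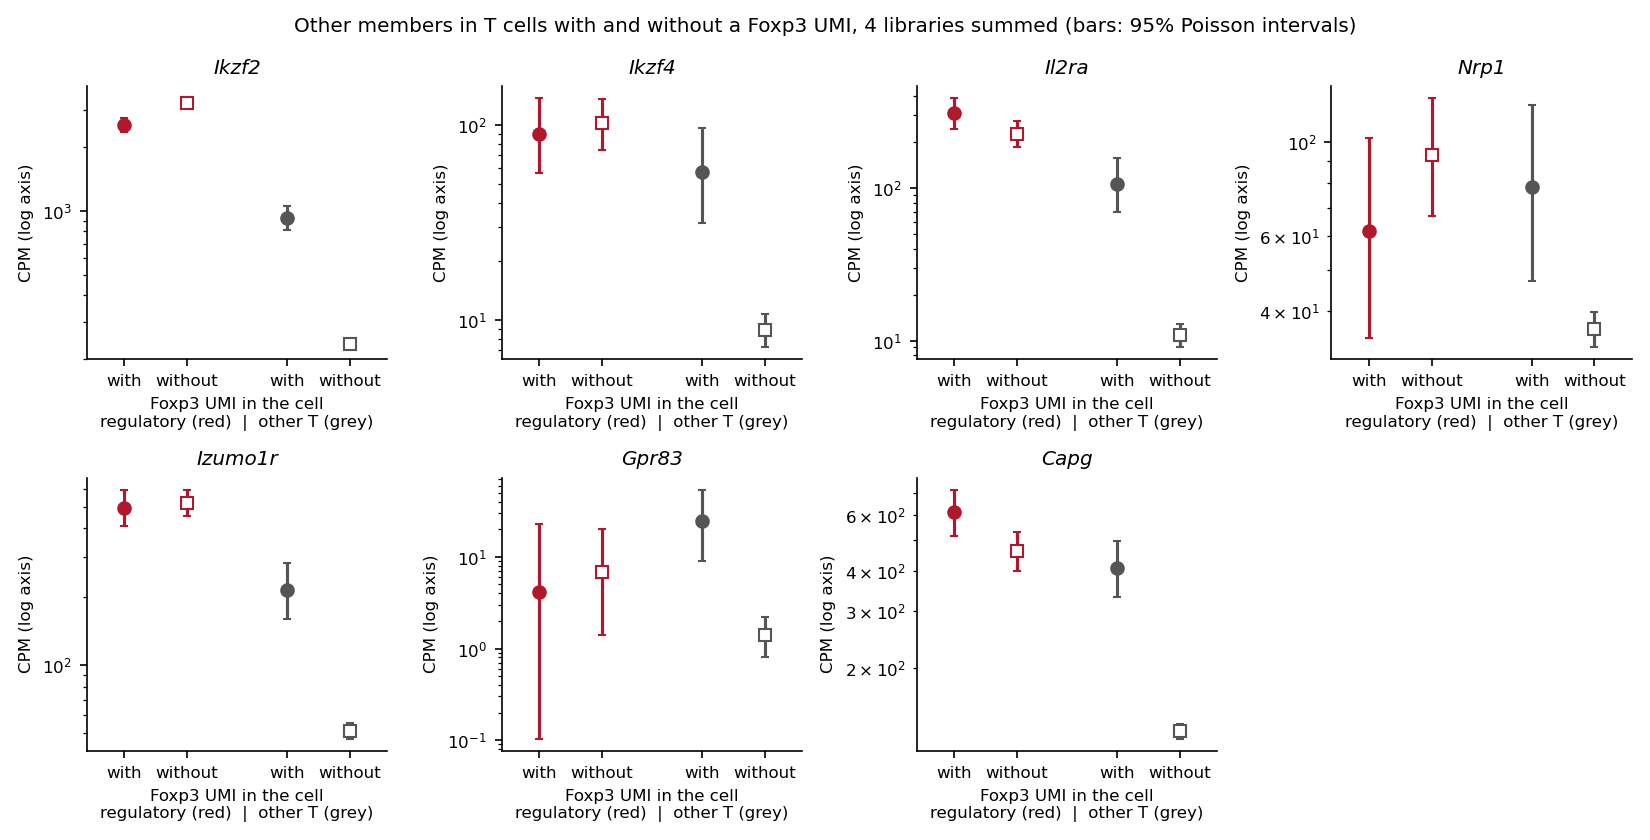
Each panel is 1 of the 7 other genes, with its CPM on a log axis in cells with and without a Foxp3 UMI, for regulatory T cells (red, left) and other T cells (grey, right), summed over 4 libraries, with exact 95% Poisson intervals. In other T cells every gene is higher in the 66 cells with a Foxp3 UMI, for example Izumo1r at 214 against 51.1 CPM; in regulatory cells Ikzf2 is lower in them, 2541 against 3217 CPM.

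Across T sub-clusters by library, 34 points of at least 30 cells, the 8 genes did not follow a single pattern. On log2(CPM + 10), Foxp3 was closest to Ikzf4 (Pearson r 0.81) and Ikzf2 (0.75), Il2ra to Capg (0.75), and Nrp1 to Capg (0.85), whereas Foxp3 and Nrp1 had an r of 0.33. Among 9251 genes, those most like Foxp3 were Arl5a (0.90), Dst (0.87), Ankrd55, Ecm1 (both 0.86) and Neb (0.85). Ikzf2 was followed by Tnfrsf1b (0.82), Traf1, Fam49b, Rnaset2b and Foxp3, and Ikzf4 by Matk (0.88), Picalm, Itgb8, Dst and Rapsn. Il2ra was followed by Areg (0.92), Ccr2, Il1rl1, Nrip1 and Samsn1, and Izumo1r by Trac (0.83), Matk, Tmem191c, Tnfrsf4 and Prkca. Nrp1 was followed by Tnfsf11 (0.93), Hnrnpll, Hif1a, Trps1 and S100a11, and Capg by Srgn and Ctla4 (both 0.91), Chst2, Tgfb1 and Cish. The points share libraries and differ in depth, so these values are descriptions; the likeness of Gpr83, best with Zfp281 (0.78), rests on 27 UMIs.

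Over all T cells Foxp3 was higher in both KO libraries than in both WT libraries, by less than 2-fold, with T cells taken by cluster. It stood at 25.8 CPM in the KO anti-PD-1 library, 26.1 CPM in the KO IgG library, 19.99 CPM in the WT anti-PD-1 library and 17.3 CPM in the WT IgG library, on 51, 48, 90 and 83 UMIs. The ratio was 1.29 (0.90 to 1.84) for KO anti-PD-1 over WT anti-PD-1, 1.51 (1.03 to 2.18) for KO IgG over WT IgG, 0.99 (0.65 to 1.5) for KO anti-PD-1 over KO IgG and 1.15 (0.85 to 1.58) for WT anti-PD-1 over WT IgG. These 4 comparisons share libraries in pairs. KO IgG over WT IgG is the only one whose interval leaves out 1. Regulatory cells made up 8.18% of T cells in the KO IgG library and 7.66% in the WT IgG library, and their Foxp3 levels were 499 and 260 CPM. In the KO anti-PD-1 library 13.6% of T cells were regulatory, and these had 240 CPM of Foxp3. With T cells taken by a gate on markers in place of clusters, Foxp3 was at 23.0, 28.5, 32.9 and 8.09 CPM in the same library order, on 11, 10, 28 and 6 UMIs. The WT anti-PD-1 library was then highest. The gate asked for a UMI of Cd3d, Cd3e or Cd3g and for none of Cd79a, Lyz2, S100a8 or Epcam. A UMI of the neutrophil marker S100a8 was present in 52.3%, 56.1%, 49.9% and 63.3% of the clustered T cells in the same library order. The gate thus dropped a large part of them, and the part of this in the order of libraries was not tested.

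Only Capg passed 2-fold in all T cells, in 1 comparison. It was at 214 CPM in the KO anti-PD-1 library, 102 CPM in the KO IgG library, 155 CPM in the WT anti-PD-1 library and 142 CPM in the WT IgG library, and its ratio of KO anti-PD-1 over KO IgG was 2.09 (1.76 to 2.49). That made 1 of 7 genes counted, where 6.01% of all genes passed 2-fold in either direction. In KO anti-PD-1 over WT anti-PD-1, KO IgG over WT IgG and WT anti-PD-1 over WT IgG, 0 of 7, 0 of 7 and 0 of 8 genes passed, where 4.61%, 3.67% and 2.35% of all genes did. The share of higher genes among those past 2-fold was 46.9% in KO IgG over WT IgG and 30.3% with TMM factors, and 57.7% in WT anti-PD-1 over WT IgG and 44.9% with TMM factors. In other T cells Capg was at 190, 84.0, 140 and 120 CPM and Nrp1 at 41.8, 20.6, 45.0 and 34.2 CPM in the same library order, with ratios of KO anti-PD-1 over KO IgG of 2.26 (1.85 to 2.75) and 2.03 (1.35 to 3.11), and 6.53% of genes passed 2-fold there. The KO IgG library is the low one for both. The make-up of other T cells differed between these libraries. The KO anti-PD-1 library held 24 naive T-like, 277 CD8 T-like and 114 Penk-led CD4 T-like cells, against 254, 97 and 32 in the KO IgG library. Within the same sub-cluster, Capg was at 1.53 (0.97 to 2.48) in Penk-led CD4 T-like, 1.35 (0.84 to 2.26) in CD8 T-like and 2.26 (1.20 to 4.36) in Ly49 T-like cells. Nrp1 was at 1.15 (0.54 to 2.65) in Penk-led CD4 T-like and 1.00 (0.41 to 2.76) in CD8 T-like cells, below its ratio over all other T cells. In Cd40lg-led CD4 T-like cells Nrp1 was at 2.88 (0.79 to 15.7) on 13 and 3 UMIs. In cycling cells it was at 0.50 (0.13 to 2.06) on 6 and 5 UMIs. Capg was at 2.11 (1.09 to 4.46) in cycling and 0.96 (0.51 to 1.86) in Cd40lg-led CD4 T-like cells. In Xcl1-led cells Capg was at 19.3 (2.90 to 820) on 13 and 1 UMIs, and interferon-led cells had 16 and 0 UMIs. It was at 0.97 (0.46 to 1.99) in the unnamed Ly6c2-led cells. In naive T-like cells it was at 1.33 (0.15 to 5.58) on 2 and 18 UMIs, and in Calca-led cells at 0.40 (0.07 to 1.42) on 3 and 14 UMIs. The part of make-up in these ratios was not tested.

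Within regulatory T cells the KO anti-PD-1 library had the lowest level of Ikzf2. It had 2162 CPM on 333 UMIs, against 3501 CPM in the KO IgG library on 309 UMIs, 3596 CPM in the WT anti-PD-1 library on 769 UMIs and 2742 CPM in the WT IgG library on 622 UMIs. The ratio was 0.60 (0.53 to 0.68) for KO anti-PD-1 over WT anti-PD-1 and 0.62 (0.53 to 0.72) for KO anti-PD-1 over KO IgG, and 1.28 (1.11 to 1.47) for KO IgG over WT IgG and 1.31 (1.18 to 1.46) for WT anti-PD-1 over WT IgG. Over 12 other settings each, the first 2 ratios stayed between 0.54 and 0.71 and between 0.56 and 0.71, whereas the last 2 fell below 1 with cells thinned to 1000 UMIs, at 0.94 for each. The share of regulatory cells with an Ikzf2 UMI was 57.4% in the KO anti-PD-1 library at 500 UMIs per cell, against 77.8% in the KO IgG library, 72.4% in the WT anti-PD-1 library and 69.8% in the WT IgG library.

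Foxp3 in regulatory cells was highest in the KO IgG library, and the other 3 libraries lay between 240 and 260 CPM. The ratio was 0.48 (0.30 to 0.76) for KO anti-PD-1 over KO IgG, on 37 and 44 UMIs, and 1.92 (1.27 to 2.88) for KO IgG over WT IgG, against 0.95 (0.61 to 1.47) for KO anti-PD-1 over WT anti-PD-1 and 0.97 (0.66 to 1.43) for WT anti-PD-1 over WT IgG. The first of these comparisons moved to 0.74 with cells thinned to 500 UMIs and to 0.35 with cells thinned to 1000 UMIs, which left 60 regulatory cells in the KO anti-PD-1 library and 35 in the KO IgG library. Over 12 settings KO IgG over WT IgG ran from 1.30 to 2.18 and WT anti-PD-1 over WT IgG from 0.84 to 1.01. KO anti-PD-1 over WT anti-PD-1 ran from 0.54 to 1.43, so its direction turned with the setting.

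Izumo1r was highest in the KO anti-PD-1 library, where Ikzf2 was lowest. It had 119 UMIs there, 40 in the KO IgG library, 116 in the WT anti-PD-1 library and 74 in the WT IgG library, and anti-PD-1 libraries were above IgG libraries at 1.70 (1.18 to 2.50) with KO tumours and 1.66 (1.23 to 2.26) with WT tumours. The second ratio fell to 0.95 with cells thinned to 1000 UMIs, and the first stayed between 1.11 and 2.05 over 12 settings. KO anti-PD-1 over WT anti-PD-1 was 1.42 (1.09 to 1.86), between 1.36 and 1.60 over 12 settings, and KO IgG over WT IgG was 1.39 (0.92 to 2.07).

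The remaining genes rest on fewer UMIs or differ less. Il2ra had ratios of 1.57 (0.99 to 2.48) for KO anti-PD-1 over WT anti-PD-1, 1.12 (0.69 to 1.78) for KO IgG over WT IgG, 0.90 (0.55 to 1.5) for KO anti-PD-1 over KO IgG and 0.65 (0.42 to 0.98) for WT anti-PD-1 over WT IgG. Over 12 settings its ratio of KO anti-PD-1 over KO IgG ran from 0.70 to 2.22 and that of KO IgG over WT IgG from 0.54 to 1.49, and the direction of both turned with the setting. Nrp1 had 5, 7, 22 and 22 UMIs, and KO anti-PD-1 over WT anti-PD-1 was 0.32 (0.09 to 0.85). Ikzf4 was at 0.52 (0.21 to 1.16) in that comparison and at 0.43 (0.16 to 1.11) for KO anti-PD-1 over KO IgG. Capg lay between 0.78 and 1.08 in all 4 comparisons, with every interval spanning 1, in contrast to its 2-fold difference in other T cells.

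Past 2-fold in regulatory cells were Nrp1 in KO anti-PD-1 over WT anti-PD-1, 1 of 7 genes where 8.94% of all genes passed, and Foxp3 and Ikzf4 in KO anti-PD-1 over KO IgG, 2 of 6 genes where 10.6% passed. Foxp3 was no longer past 2-fold there with TMM factors (0.56) or median-of-ratios factors (0.52), and Ikzf4 reached 0.64 with the 8 genes among the clustering genes. In KO IgG over WT IgG 0 of 7 passed, where 8.80% of all genes did, and in WT anti-PD-1 over WT IgG 0 of 7, where 6.32% did. The share of higher genes among those past 2-fold was 44.0% in KO IgG over WT IgG and 11.9% with TMM factors, and 46.9% in KO anti-PD-1 over KO IgG and 76.6% with TMM factors, which shifted the median of all genes by -0.29 and 0.20 on the log2 scale. The summed level of the 8 genes was 0.77 (0.70 to 0.85) for KO anti-PD-1 over WT anti-PD-1, 1.24 (1.11 to 1.39) for KO IgG over WT IgG, 0.74 (0.66 to 0.84) for KO anti-PD-1 over KO IgG and 1.19 (1.10 to 1.30) for WT anti-PD-1 over WT IgG, and Ikzf2 supplied most of those UMIs.

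Marker transcripts of other cell types also differed between the regulatory cells of the 4 libraries. The 6 neutrophil markers summed to 1396, 2017, 1262 and 2725 CPM in the KO anti-PD-1, KO IgG, WT anti-PD-1 and WT IgG libraries, with 0 of 6 at 0. The 6 CD8 T cell markers summed to 2922, 952, 3030 and 1235 CPM, against 13849, 5376, 15758 and 6568 CPM in other T cells. The 4 erythroid markers summed to 1052, 0, 28.1 and 0 CPM with Alas2 at 0, and the 5 B cell markers to between 32.5 and 70.1 CPM with Ms4a1 at 0. The regulatory cells' median depth was 918, 879, 860.5 and 1138 UMIs in the same order. Whether these transcripts came from other cells was not tested. The part of these transcripts and of depth in the ratios above was not tested either.

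**Figure D4:**
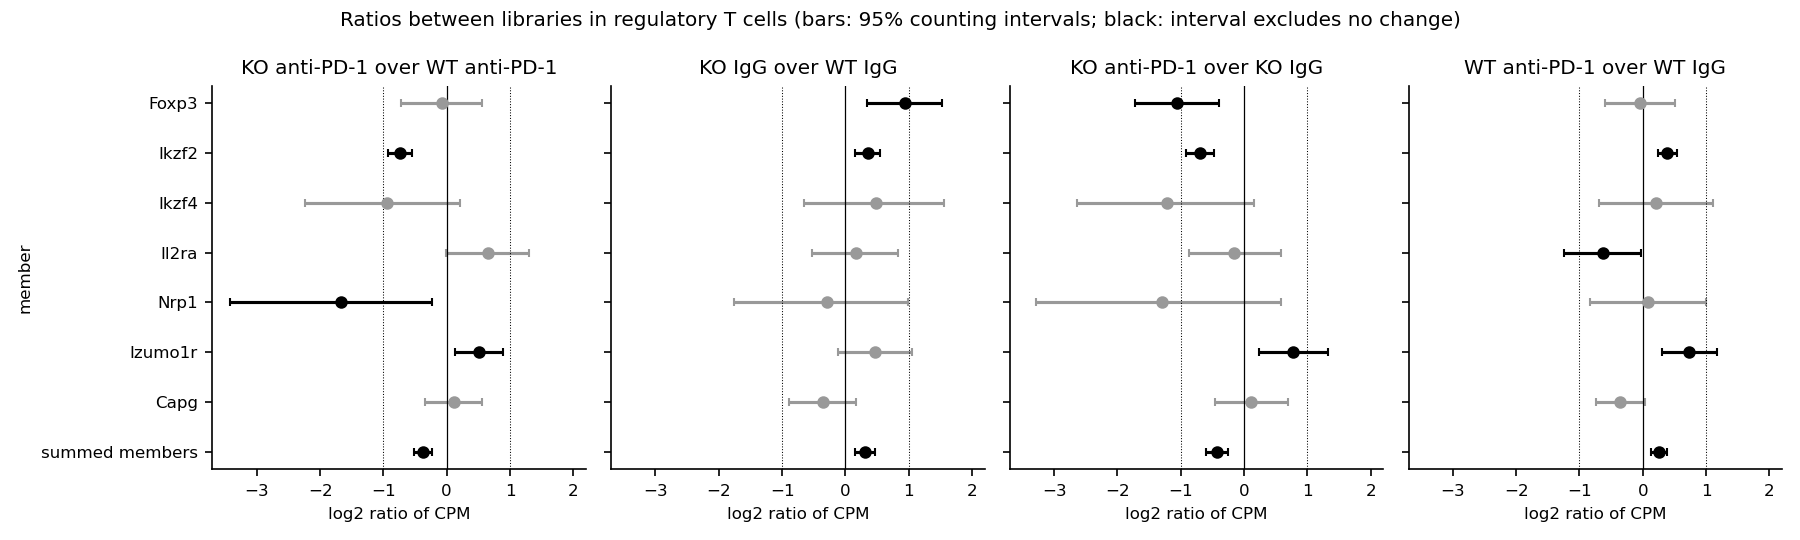
For the genes on the vertical axis, the horizontal axis gives the log2 ratio of CPM between libraries in regulatory T cells in 4 comparisons, with exact 95% counting intervals; black marks intervals that leave out no change. Ikzf2 lies left of 0 in both comparisons with the KO anti-PD-1 library on top (ratios 0.60 and 0.62) and right of 0 in the other comparisons, while Izumo1r lies right of 0 throughout.

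Among genes of related function, the lists for costimulation, suppression and effector or tissue regulatory T cells were high in regulatory cells along with the 8 genes, and the resting list was not. These genes were available to the clustering, and several of them named the sub-cluster, so their levels describe it. Against the 3.33% of all genes that were at least 2-fold higher in all 4 libraries, 5 of 9 costimulatory and checkpoint genes were, with a median log2 ratio of 2.26. Tnfrsf4 (OX40) was at 1578 CPM in regulatory and 96.5 CPM in other T cells, Ctla4, which takes CD80 and CD86 from presenting cells, at 1498 and 167 CPM, Tnfrsf18 (GITR) at 1201 and 166 CPM, and Tnfrsf9 (4-1BB) at 833 and 55.4 CPM. Of 14 effector or tissue genes 11 were higher (median 2.04), among them the transcription factor Maf at 864 and 88.9 CPM and the chemokine receptor Ccr2 at 523 and 47.4 CPM.

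Of the 12 suppressive effector genes 9 could be counted and 6 were higher (median 1.99), where 3.33% of all genes were higher. Areg led them at 684 CPM in regulatory cells and 30.7 CPM in other T cells. Of the 11 genes of the IL-2 pathway 2 were higher and 1 lower (median 0.87): Cish and Socs2, both induced by STAT5, were higher, and Bcl2, which protects from cell death, was lower. Of the 9 resting genes 0 were higher and 2 lower (median -1.34), where 1.92% of all genes were lower. They were Bach2 and Tcf7, a transcription factor of naive T cells that stood at 14.6 CPM in regulatory and 212 CPM in other T cells. The 11 Ikaros family and Foxp3 partner genes had 0 in either direction (median 0.47), with Ikzf1 at 113 CPM in regulatory and 178 CPM in other T cells and Bcl11b at 297 and 215 CPM.

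Between libraries, 4 of 8 counted suppressive genes were past 2-fold higher in regulatory cells in KO anti-PD-1 over KO IgG, where 4.99% of all genes were (median log2 ratio 0.83). Il10, an inhibitory cytokine, was at 247 CPM in the KO anti-PD-1 library on 38 UMIs, 34.0 CPM in the KO IgG library on 3 UMIs, 173 CPM in the WT anti-PD-1 library on 37 UMIs and 75.0 CPM in the WT IgG library on 17 UMIs. Its ratio was 7.26 (2.30 to 36.8) for KO anti-PD-1 over KO IgG and 2.31 (1.27 to 4.37) for WT anti-PD-1 over WT IgG. In the first of these comparisons Lag3 was at 2.87 (1.66 to 5.25), Areg at 2.83 (1.98 to 4.15) and Fgl2 at 2.22 (1.27 to 4.12), while from the tissue list Il1rl1, the IL-33 receptor, was at 0.22 (0.11 to 0.42) and Rora at 0.45 (0.27 to 0.75).

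In the other comparisons the genes past 2-fold in regulatory cells came from several lists. With KO anti-PD-1 over WT anti-PD-1 they were Gzmb (2.55, 1.73 to 3.80), Areg (2.12, 1.67 to 2.69) and Cbfb (2.95, 1.21 to 7.90) above, and Bcl11b (0.49, 0.30 to 0.76) and Foxp1 (0.48, 0.20 to 1.06) below. With KO IgG over WT IgG Pdcd1 (2.23, 1.16 to 4.26), Klf2 (2.45, 1.28 to 4.68) and Ccr7 (3.85, 1.62 to 9.60) were above, the last 2 from the resting list (2 of 5 counted, median 0.90), and Il10 (0.45, 0.09 to 1.57), Lrrc32 (0.24, 0.03 to 1.00) and Runx1 (0.34, 0.09 to 0.97) below. With WT anti-PD-1 over WT IgG Pdcd1, which encodes PD-1, was at 2.17 (1.29 to 3.74) on 47 and 23 UMIs, Cd27 at 2.65 (1.74 to 4.13), Itgb8 at 2.08 (1.26 to 3.51), Ikzf1 at 2.25 (1.21 to 4.37), Ikzf5 at 2.47 (0.89 to 7.86), Ccr7 at 2.12 (0.95 to 5.07) and Gzmb at 0.49 (0.33 to 0.71). No gene of the IL-2 pathway list was past 2-fold in any of the 4 comparisons. For scale, 8.94% of all genes counted in regulatory cells passed 2-fold with KO anti-PD-1 over WT anti-PD-1. Under IgG, 8.80% passed for KO over WT tumours, 3.87% higher and 4.93% lower. Among WT tumours, 6.32% passed for anti-PD-1 over IgG. Whether the listed genes passed more often than these shares was not tested.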

How the data were processed

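The 4 libraries were made with 10x 3′ v2 chemistry. The authors deposited matrices of raw UMI counts per gene and barcode. Per the file headers, Cell Ranger 3.0.0 wrote them, and bcl2fastq is also named in the submitters' processing notes. Those notes give the human build hg19 although every gene identifier is mouse Ensembl, so build and annotation were not established here. Reads outside annotated 3′ ends and reads of near-identical genes are lost or split in such counting.

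Cells with at least 200 genes and at most 10% mitochondrial UMIs were kept, and between 73 and 105 barcodes per library with a doublet score over 0.25 (scrublet in scanpy 1.11.5) were removed. Cells were clustered with the Leiden method (igraph 0.11.9) on 30 components of 2000 variable genes, T cells again without the 8 genes, and named from marker lists where a list led by 0.5 and at least 3 markers were detected. A T sub-cluster also needed 2 of its markers among its top 10 genes over other T cells or over other cells, a rule added after seeing the data, which left the Xcl1-led cells unnamed. UMIs were summed per library and class and divided by the class total (CPM). With 1 library per group no test was run; intervals are exact Poisson, Clopper-Pearson and conditional Poisson ratio intervals at 95% (scipy 1.17.1). A comparison between libraries counted genes with at least 20 UMIs over both, and that of regulatory with other T cells genes with at least 80 UMIs in T cells. Listed genes were named where they had one of the 4 largest level differences between regulatory and other T cells in their list or passed 2-fold between libraries in regulatory cells. The counting and interval code was tested on simulated data. Alternatives covered filters, thinning, clustering resolution, doublet removal, a gate in place of clusters, and TMM and median-of-ratios factors (edgeR 4.0.16, R 4.3.3). The members and lists were chosen with earlier results of these data known. A count of 0 allows up to 3 counts of a class total.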

Additional observations from a re-analysis of the deposited data

Results flagged for a closer look

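Ikzf2 in regulatory T cells moved in opposite directions with anti-PD-1 under the 2 tumour genotypes: anti-PD-1 over IgG was 0.62 (0.53 to 0.72) with KO tumours and 1.31 (1.18 to 1.46) with WT tumours, a quotient of 0.47. The summed level of the 8 genes in regulatory T cells did the same, at 0.74 (0.66 to 0.84) with KO tumours and 1.19 (1.10 to 1.30) with WT tumours, a quotient of 0.62. With cells thinned to 1000 UMIs, anti-PD-1 over IgG with WT tumours was 0.94 for Ikzf2 and 0.90 for the summed level, so both genotypes then went the same way. In KO anti-PD-1 over KO IgG the summed level was 0.74 (0.66 to 0.84) in regulatory T cells and 1.30 (1.18 to 1.42) in other T cells, a quotient of 0.57. Different genes moved these 2 sums. Ikzf2 was lower in the KO anti-PD-1 library in both classes, at 2162 against 3501 CPM in regulatory and 232 against 262 CPM in other T cells. In other T cells Capg was higher there, at 190 against 84.0 CPM, as were Izumo1r (72.0 against 48.0 CPM) and Nrp1 (41.8 against 20.6 CPM). Each group is 1 library, so none of the 3 flagged differences was tested, and their cause was not tested.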

How the results depend on the processing

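Of 583 values recomputed under other settings, 514 stayed within counting error, or within 1.5 times for a count. Of 384 such ratios between libraries in regulatory cells, 33 changed direction, 11 of them with cells thinned to 1000 UMIs and between 0 and 3 under each other setting. That thinning left out 284 of 525 regulatory cells, and 5 of its 11 were ratios whose interval had left out 1: the summed ratio (0.99) and Ikzf2 (0.94) in KO IgG over WT IgG, and the summed ratio (0.90), Ikzf2 (0.94) and Izumo1r (0.95) in WT anti-PD-1 over WT IgG; the shares of regulatory cells with a UMI were then 22.0% for Foxp3, 80.5% for Ikzf2, 7.47% for Ikzf4, 15.4% for Il2ra, 7.05% for Nrp1 and 34.4% for Izumo1r. The summed ratio of KO anti-PD-1 over WT anti-PD-1 was 0.855 with at most 5% mitochondrial UMIs and 0.857 with at least 1000 UMIs per cell, where WT anti-PD-1 over WT IgG was 1.06. With TMM factors the summed ratio was 1.02 for KO IgG over WT IgG and 0.86 for KO anti-PD-1 over KO IgG. In the last comparison 1 gene of the 8 (Ikzf4, no longer Foxp3) then passed 2-fold, as it did with median-of-ratios factors. Of all genes 10.6% passed there without factors, and the share with factors is not given here.

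With T cells taken by a gate in place of clusters, Foxp3 over all T cells was 0.70 for KO anti-PD-1 over WT anti-PD-1, 3.53 for KO IgG over WT IgG and 4.07 for WT anti-PD-1 over WT IgG. That gate rests on 11, 10, 28 and 6 Foxp3 UMIs and kept 22.4%, 20.3%, 21.9% and 17.7% of the clustered T cells in the KO anti-PD-1, KO IgG, WT anti-PD-1 and WT IgG libraries.

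Counts past 2-fold followed the minimum of UMIs. In the order KO anti-PD-1 over WT anti-PD-1, KO IgG over WT IgG, KO anti-PD-1 over KO IgG and WT anti-PD-1 over WT IgG, all T cells gave 445, 354, 527 and 239 genes, 4344, 4076, 4103 and 3505 at 1 UMI, and 168, 97, 202 and 76 at 50 UMIs. Regulatory cells gave 261, 216, 207 and 209 genes, 4752, 5163, 4832 and 4379 at 1 UMI, and 50, 34, 37 and 27 at 50 UMIs. Of the 8 genes, 2 passed in all T cells at 1 UMI in KO anti-PD-1 over KO IgG and 1 in regulatory cells in KO IgG over WT IgG. At 50 UMIs 0 passed in regulatory cells in KO anti-PD-1 over WT anti-PD-1 and 1 in KO anti-PD-1 over KO IgG. How many genes met each of these minimums was not counted, so these counts cannot be set against a share of all genes.

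The ratio of regulatory over other T cells for Ikzf2 was 13.9 at 500 UMIs per cell, 14.0 as a mean over cells and 12.7 without the KO anti-PD-1 library. Il2ra was 25.4 at 500 UMIs per cell, Capg 3.30 at 500 UMIs, 3.09 as a mean over cells and 3.42 without the WT IgG library, and Izumo1r 10.8 without the WT IgG library. Thinning to 500 UMIs and leaving out libraries were chosen after seeing the data. Without the cell with most UMIs, Nrp1 in regulatory cells was 0.20 for KO anti-PD-1 over WT anti-PD-1. At resolution 0.5 no regulatory sub-cluster was named, so that setting gave no value for it. The causes of these changes were not tested. No paired analysis was possible because each group is 1 library and no result comes from a test. Depth limits Gpr83, Nrp1 and Ikzf4 in regulatory cells, which rest on 4, 56 and 67 UMIs.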

Other observations

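Over all T cells, 3 of the 6 lists around the 8 genes had several members past 2-fold in KO anti-PD-1 over KO IgG. Of the 9 resting genes 7 were past 2-fold lower there (median log2 ratio -1.13, against 0.03 over all genes), of 8 counted costimulatory and checkpoint genes 3 were past 2-fold higher (median 0.78), and of 11 counted suppressive effector genes 5 were (median 0.93), where 2.63% of all genes were lower and 3.37% higher. The tissue list had 1 of 14 higher and 1 lower, and the IL-2 pathway 0 of 11. T cells differed in make-up between these libraries: naive T-like cells were 2.32% of T cells in the KO anti-PD-1 library and 25.7% in the KO IgG library, and CD8 T-like cells 26.8% and 9.80%; the part of this in the lists was not tested. In KO IgG over WT IgG 3 of 11 suppressive genes were past 2-fold lower (median -0.48), where 1.95% of all genes were, and in WT anti-PD-1 over WT IgG 3 of 11 were higher (median 0.52), where 1.36% of all genes were. The 11 genes of the Ikaros family and Foxp3 partners had 0 past 2-fold in all T cells in each of the 4 comparisons.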
